A study of Arabidopsis thaliana with 9 samples.

Results

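In dark-grown Arabidopsis thaliana seedlings, 227 genes differed at least 2-fold between the brassinosteroid receptor mutant bri1-116 and the wild type Col, while their mean in the AtGATA2 overexpression line AtGATA2ox stayed near the Col level. They were selected on these same measured intensities among 11933 probe sets that the array annotation pairs with exactly 1 gene known by a locus code (1.9%). On the scale log2(intensity + 1), the mean of bri1-116 minus Col had to be at least 1 in size, with no overlap of the 3 arrays of each (33.7% of the 11933 had none). The mean of AtGATA2ox minus Col had to lie between -0.58 and 0.58, and the mean intensity had to reach 200 in bri1-116 or Col. Another 3 loci were left out by name, though 0 of them would have met the other criteria. Of the 227 genes, 139 were higher in bri1-116 (1.16% of the probe sets) and 88 were lower (0.737%).

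The study asked which genes AtGATA2 regulates and how light and brassinosteroid control meet. It measured RNA of whole seedlings on single-colour Affymetrix arrays, 3 for each genotype and 9 in all. The bri1-116 arrays held seedlings homozygous for a null allele of BRI1. After freezing, these homozygotes had been picked individually out of the offspring of heterozygous plants. The AtGATA2ox arrays held a transgenic line that overexpresses AtGATA2. The sources used here state neither the promoter of its transgene nor the number of lines. The Col arrays held the untransformed wild type. All 3 genotypes share the Columbia-0 background and growth for 108 h in darkness on plates that held 1% sucrose. No label ties the arrays to separate cultures, so errors and p-values measure the spread between these arrays, which may be technical.

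Brassinosteroids are plant steroid hormones that drive cell elongation in dark-grown seedlings. BRI1 is the kinase at the cell surface that binds them, and its signal removes the block that the kinase BIN2 places on the transcription factors BZR1 and BES1. AtGATA2 is a GATA-type transcription factor that promotes seedling development of the kind seen in light, and BZR1 is known to repress its gene. Plants without BRI1 are dwarfs, and in the dark they open their cotyledons and keep a short hypocotyl. BRI1 and AtGATA2 themselves have no probe set named in the annotation used here, so their levels could not check the genotype labels.

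Both differences that define the 227 genes were used to choose them, so their values are a description and no test is given for them. On the bri1-116 side, 308 probe sets (2.58%) met the criteria as higher and 432 (3.62%) as lower. Of the 308 higher ones, 139 (45.13%) fell within the AtGATA2ox limits, 128 lay outside them in the same direction as in bri1-116, and 41 lay outside in the opposite direction. Of the 432 lower ones, 88 (20.37%) fell within the limits, 309 lay outside in the same direction, and 35 lay outside in the opposite direction. Over all 11933 probe sets, 43.7% were within the AtGATA2ox limits. Both differences subtract the same Col arrays, so these counts do not compare the 2 genotypes independently.

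**Figure D1:**
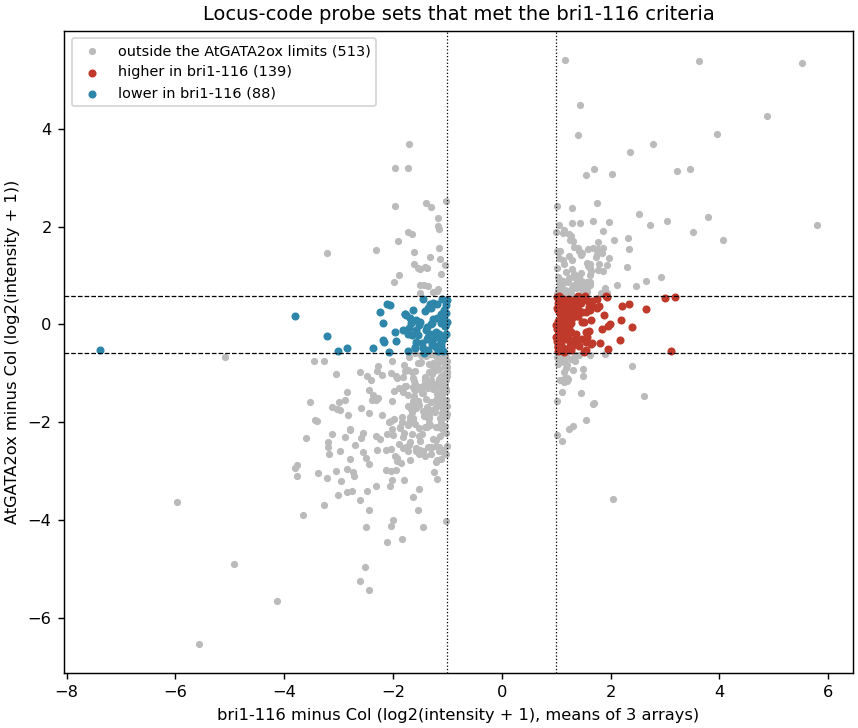
Each point is 1 locus-code probe set that met the criteria of size, array separation and level in bri1-116 against Col (x axis, log2 difference of means of 3 arrays), plotted against its AtGATA2ox minus Col difference (y axis, log2). Dashed lines mark the limits of -0.58 and 0.58, and dotted lines a size of 1. The 139 higher and 88 lower genes lie between the dashed lines, and the grey points outside them lie mostly in the lower left.

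The limits are thresholds on a continuous spread, and genes on both sides of them had close values. Just inside the size limit lay AT5G64150 and AT1G32470 at 1.00 each, and just outside lay AT4G14270 (0.999) and AT4G25370 (0.998). Among the lower genes AT3G01930 (-1.0) and AT4G32140 (-1.01) were just inside, and AT4G16490 and AT3G19010 (-0.998 and -0.999) just outside. For AtGATA2ox minus Col, AT2G44920 was inside at 0.579 and AT5G42070 outside at 0.617, while AT1G48330 was inside at -0.579 and AT5G18970 outside at -0.581. By level, AT3G46930 (200.1) and AT3G29140 (201) were just inside, and AT5G59930 (199) and AT2G36145 (195) just outside.

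Membership depended on how the arrays are scaled to each other. The deposited intensities share a trimmed mean of 500 per array. With scaling to the hybridisation controls, the median difference of all probe sets shifted by -0.47 in bri1-116 and by -1.05 in AtGATA2ox. Then 48 genes met the rule as higher and 81 as lower, of which 10 and 3 were among the 139 and 88. All 227 kept the sign of their bri1-116 difference, since a shift smaller than the size limit of 1 cannot turn it. Of the 139, 20 were still within the AtGATA2ox limits, and of the 88, 3 were. With centring on the median (shifts of 0.14 and 0.34) 85 of the 139 and 49 of the 88 still met the rule, and with quantile normalisation (0.06 and 0.18) 95 and 68 did. The label of genes changed in bri1-116 alone therefore holds relative to the deposited scaling.

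**Figure D2:**
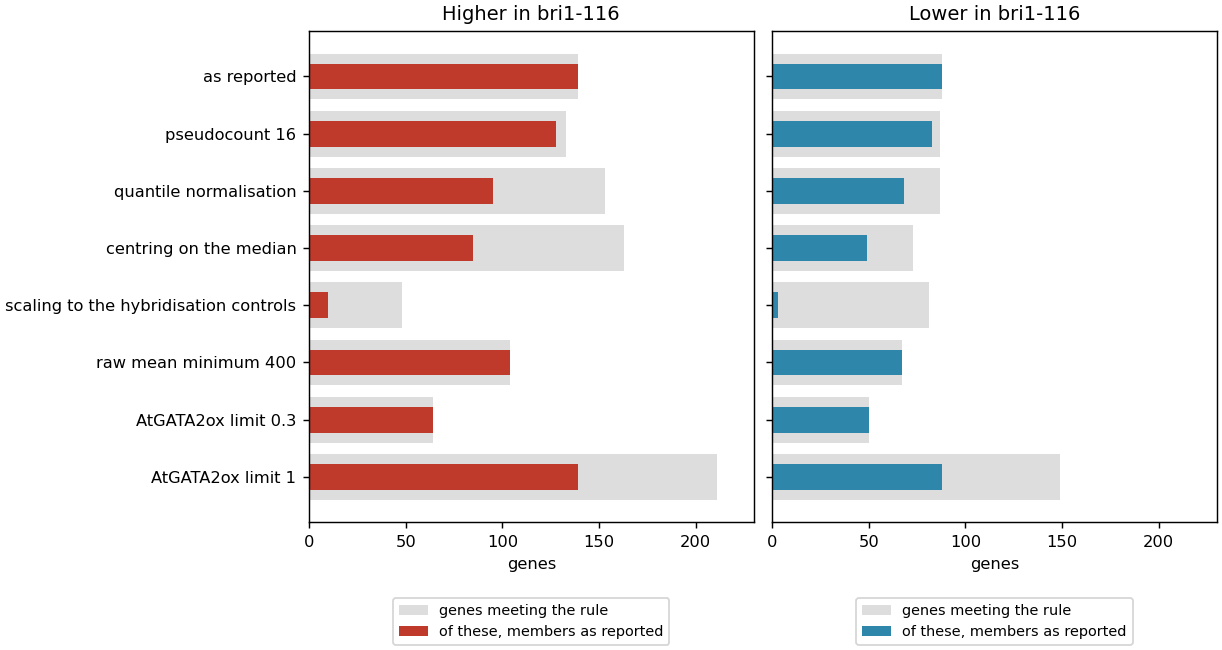
Bars give the number of genes that met the rule (x axis) under each setting (y axis), for genes higher (left) and lower (right) in bri1-116, with the coloured part showing how many of them were among the 139 and 88 as reported. Scaling to the hybridisation controls left 10 and 3 of them, the smallest coloured bars.

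Array controls differed between arrays, and their part in the differences was not tested. Dividing the 3′ actin control by the 5′ one, a quotient that grows with RNA breakdown, gave 2.86 to 4.88 in bri1-116, 3.66 to 5.45 in AtGATA2ox and 1.81 to 2.03 in Col. The same quotient was 1.51 to 1.78, 1.24 to 1.58 and 1.06 to 1.09 for ubiquitin in bri1-116, AtGATA2ox and Col, while for GAPDH the genotypes overlapped (1.21 to 1.47, 1.11 to 1.32 and 0.955 to 1.26). The 25S ribosomal RNA probe set did not follow genotype. It read 8763 and 3534 on bri1-116 replicates 1 and 2 and 108 on replicate 3, against 143 to 194 in Col. With replicate 3 as the only bri1-116 array, a setting chosen after seeing this control, 120 of the 139 and 75 of the 88 genes met the rule. The members had been chosen with replicate 3 among their arrays, so much of this was fixed in advance and it is no check on the control. Arrays of a genotype correlated at 0.891 to 0.941 and arrays of different genotypes at 0.848 to 0.911 (Pearson r across probe sets, which are not independent). The AtGATA2ox arrays were deposited in a separate run of records, and the labels do not state whether they were hybridised together with the others. In whole seedlings, fewer cells of a type and less RNA per cell cannot be told apart.

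The 139 higher genes had a median difference of 1.26 in bri1-116 (1.00 to 3.18), against 0.01 over all 11933 probe sets. Their median for AtGATA2ox minus Col was 0.08 (-0.57 to 0.58), against -0.13 over all probe sets. Most differences were modest: 101 of the 139 were under 1.5 and 9 were 2 or more. The median of the genes' mean intensities was 719 in bri1-116, 325 in AtGATA2ox and 302 in Col. The level of 200 was reached in both bri1-116 and Col by 85 of them, and in bri1-116 alone by the other 54, which had to be higher there to enter.

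The 88 lower genes reached further, with a median difference of -1.35 and a range of -7.38 to -1.0. Their AtGATA2ox minus Col median was -0.14 (-0.58 to 0.53). The size was 2 or more for 13 and under 1.5 for 54. The median of the mean intensities was 341 in bri1-116, 829 in AtGATA2ox and 812 in Col. The level of 200 was reached in both bri1-116 and Col by 58 genes, and in Col alone by the other 30. Just 2 of them, AT5G04120 and AT3G22540, had a bri1-116 mean within the range of the Bacillus controls, up to 39.3 there, which have no target in plants.

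**Figure D3:**
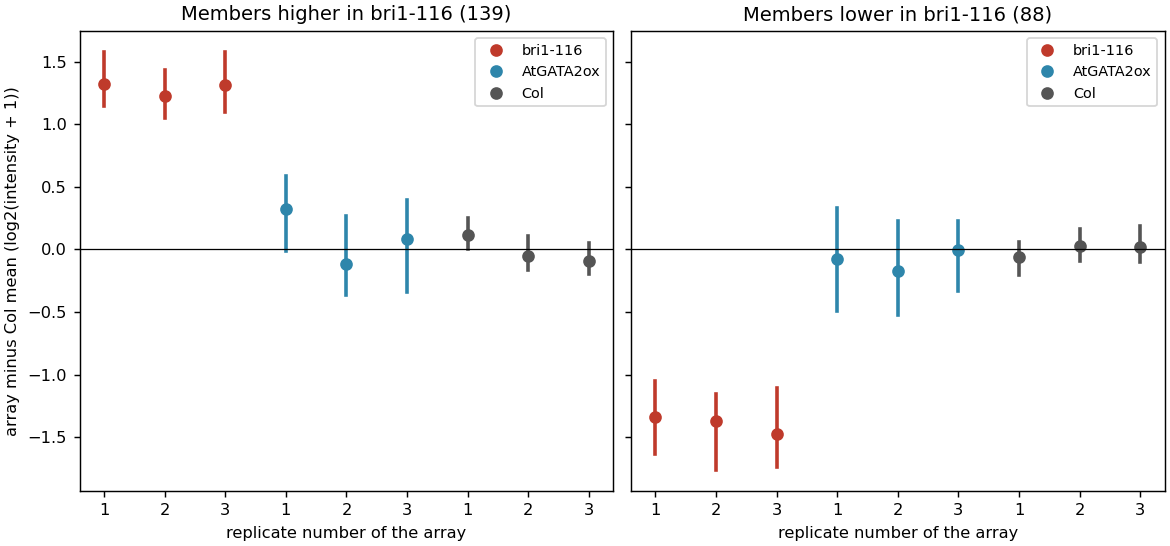
Points are the median over the 139 higher (left) or 88 lower (right) genes of each array's log2(intensity + 1) minus the gene's Col mean (y axis), and bars run from the lower to the upper quartile over genes, for replicates 1 to 3 of each genotype (x axis). The bri1-116 medians lie between 1.23 and 1.32 on the left and between -1.48 and -1.34 on the right, while AtGATA2ox medians lie between -0.11 and 0.32, and between -0.17 and -0.0023.

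Because the rule used all 3 bri1-116 arrays, the likeness of their medians is partly built in and is no separate result. Over the higher genes the bri1-116 medians were 1.32, 1.23 and 1.32 above the Col mean. Over the lower genes they were -1.34, -1.37 and -1.48. The AtGATA2ox arrays had medians of 0.32, -0.11 and 0.08 over the higher genes, so replicate 1 stood highest. Over the lower genes the AtGATA2ox medians were -0.08, -0.17 and -0.0023. Among the higher genes, bri1-116 replicate 1 was the highest of the 3 arrays for 63 and replicate 2 the lowest for 70. Among the lower genes the replicates shared these places more evenly, with 29, 27 and 32 genes highest on replicates 1, 2 and 3.

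None of the 227 genes has a symbol in RefSeq's table of genes (TAIR10.1). This is largely built in, since the rule took only genes known by a locus code. For 3 of them the synonyms in RefSeq give a name. The other 224 are described by locus code and level, with no role, because the annotation used here gives none. The named genes are PRX71 (AT5G64120), a class III peroxidase, GlcAT14B (AT5G15050), a glucuronosyltransferase of cell wall polysaccharide side chains, and NPF3.1 (AT1G68570), of the nitrate and peptide transporter family.

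PRX71 read 565, 786 and 590.4 in bri1-116, 1238, 2366 and 3848 in AtGATA2ox, and 894, 6976 and 3762 in Col. It was lower on every bri1-116 array than on any other array, but its Col arrays were spread widely and the lowest was close to the highest bri1-116 array. The difference was -2.16 ± 0.89 for bri1-116 minus Col (log2, SE, n = 3 each) and -0.35 for AtGATA2ox minus Col. Peroxidases of this class act in the cell wall space, where they can stiffen or loosen the wall.

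GlcAT14B read 352, 313 and 376 in bri1-116, 993, 755 and 771 in AtGATA2ox, and 684, 632 and 814 in Col. The bri1-116 arrays lay below all the others by a clear margin, and the AtGATA2ox and Col arrays overlapped. Its difference was -1.03 ± 0.13 in bri1-116 and 0.24 in AtGATA2ox. NPF3.1 read 235, 226 and 206 in bri1-116, 78, 116 and 165 in AtGATA2ox, and 60.5, 95.4 and 109 in Col. All 3 bri1-116 arrays were above every other array, with a difference of 1.36 ± 0.26 in bri1-116 and 0.41 in AtGATA2ox.

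The largest of the rises belonged to AT4G26390, at 390.4, 371 and 487 in bri1-116, 88.1, 29.3 and 112 in AtGATA2ox, and 126, 17.4 and 39.7 in Col. Its Col arrays were dim and scattered, and 1 of them lay within the range of the Bacillus controls (up to 37.2 in Col). The difference of 3.18 ± 0.82 in bri1-116 is therefore inexact. In AtGATA2ox its difference was 0.563 ± 0.998, narrowly inside the upper limit and smaller than its SE. AtGATA2ox replicate 2 lay within the range of the Bacillus controls there (up to 61.8). Whether this gene stayed near the Col level in AtGATA2ox is therefore not settled. AT5G01740 read 11028, 8966 and 7059 in bri1-116, 971, 629 and 568 in AtGATA2ox, and 1001, 978 and 1112 in Col. Its bri1-116 arrays stood far above the brightest of the others, and its AtGATA2ox arrays lay below all 3 Col arrays. The difference was 3.11 ± 0.19 in bri1-116 and -0.55 in AtGATA2ox, the opposite sign.

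AT5G22580 had some of the brightest arrays of all the members, at 15621, 14321 and 14382 in bri1-116, 3526, 1901 and 2903 in AtGATA2ox, and 1919, 1786 and 1866 in Col. The Col arrays were close together, and 2 of the 3 AtGATA2ox arrays were above all of them. The difference was 2.99 ± 0.05 in bri1-116 and 0.53 in AtGATA2ox. It is thus near the upper limit for AtGATA2ox while being 7.95-fold above Col in bri1-116.

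AT5G01870 read 725, 752 and 574 in bri1-116, 196, 101 and 119.8 in AtGATA2ox, and 97.9, 136 and 91.2 in Col. AT1G33811 read 905, 949.8 and 853 in bri1-116, 139, 144 and 222 in AtGATA2ox, and 239, 182 and 112 in Col. In both genes the bri1-116 arrays were far from the rest, with differences of 2.66 ± 0.21 and 2.40 ± 0.32. Their AtGATA2ox differences were 0.32 and -0.05, and their AtGATA2ox and Col arrays overlapped.

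AT5G17670 read 1445, 1370.1 and 1876 in bri1-116, 509.7, 303 and 451 in AtGATA2ox, and 370.2, 324 and 243 in Col. AT5G58570 read 554, 498 and 578 in bri1-116, 150.5, 117 and 202 in AtGATA2ox, and 118, 139 and 97.6 in Col. AT1G68585 read 691, 523 and 494 in bri1-116, 188, 82.5 and 140.5 in AtGATA2ox, and 122, 128 and 116 in Col. For these 3 genes the bri1-116 arrays were again all above the others, with differences of 2.33, 2.20 and 2.20. AT4G37550 differed by 2.17, AT5G22340 by 1.99, AT5G26200 and AT2G40960 by 1.95 each, AT1G18680 by 1.93, AT2G44920 by 1.91 and AT4G04630 by 1.87. These 7 complete the 15 largest rises. Of them AT5G26200 (-0.51 ± 0.94), AT4G37550 (-0.32) and AT2G40960 (-0.03) were lower in AtGATA2ox than in Col by mean, with overlapping arrays. AT1G18680 (0.57) and AT2G44920 (0.58) were higher on every AtGATA2ox array than on any Col array.

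**Figure D4:**
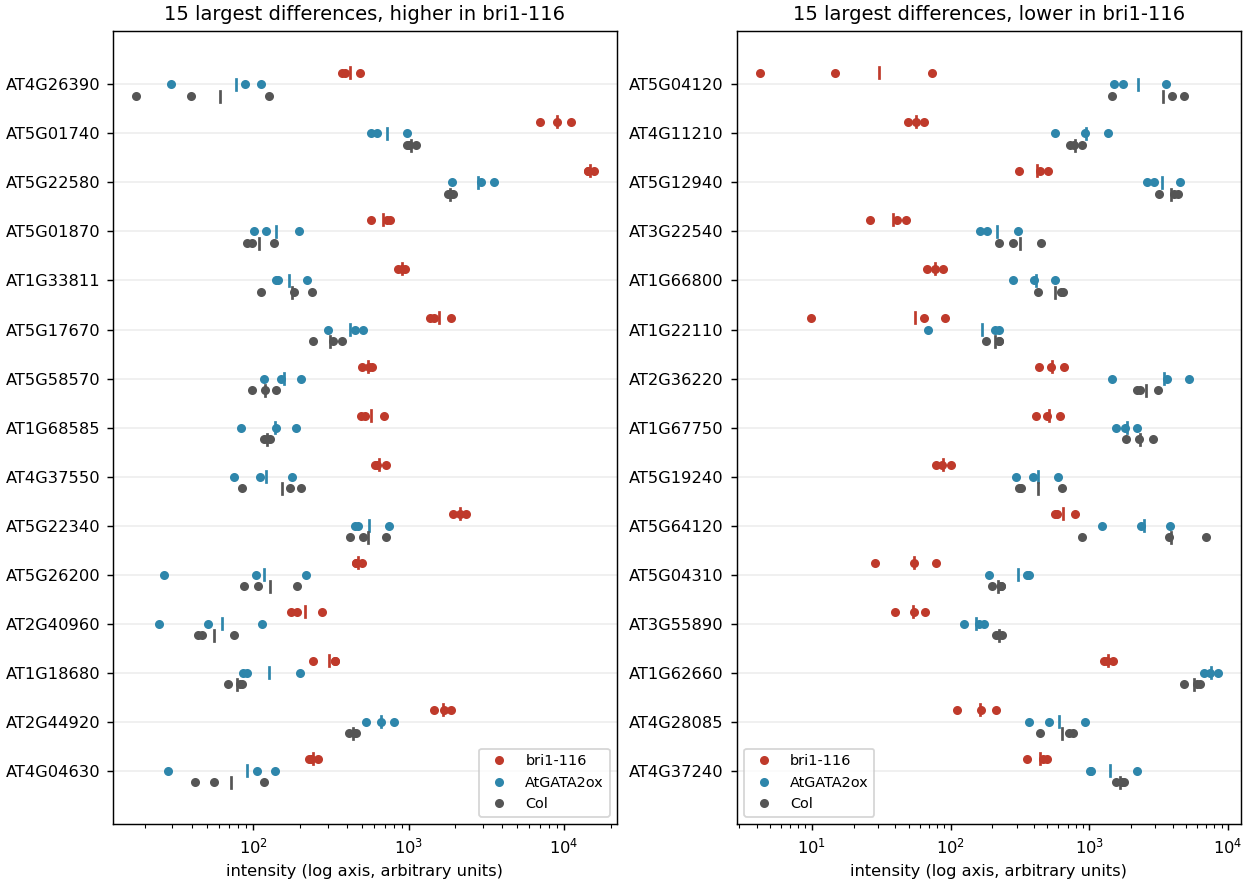
Intensity on each array (x axis, log scale, arbitrary units) for the 15 largest rises (left) and 15 largest falls (right) in bri1-116, with 1 row a gene, points for arrays and short bars for the mean of 3 arrays of each genotype. The bri1-116 points of AT5G04120 reach down to 4.2, while its AtGATA2ox and Col points lie between 1463 and 4805.

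The largest of the falls was AT5G04120, at 73.4, 4.2 and 14.6 in bri1-116, 1499, 1739 and 3552 in AtGATA2ox, and 1463, 3986 and 4805 in Col. It was bright in AtGATA2ox and Col and within or close to the control range on the bri1-116 arrays. The difference of -7.38 ± 1.23 is therefore inexact in size, and that in AtGATA2ox was -0.53.

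AT4G11210 read 63.9, 49 and 56.8 in bri1-116, 1362, 568 and 928 in AtGATA2ox, and 731, 771 and 884 in Col. The bri1-116 arrays were tightly grouped slightly above the control range, with a difference of -3.79 ± 0.14, while AtGATA2ox was 0.18 from Col. AT5G12940 read 445, 509 and 314 in bri1-116, 2941, 2608 and 4516 in AtGATA2ox, and 4099.6, 3197 and 4335 in Col. It remained well above the control range in bri1-116, at a difference of -3.21 ± 0.25.

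AT3G22540 read 26.2, 41.1 and 47.5 in bri1-116, 305, 163 and 183 in AtGATA2ox, and 222, 282 and 452 in Col. AT1G66800 read 88.4, 77.5 and 67.3 in bri1-116, 567, 282 and 397 in AtGATA2ox, and 628, 646 and 431 in Col. Both were lower on all bri1-116 arrays than on any other array, with differences of -3.0 ± 0.39 and -2.84 ± 0.22. The bri1-116 mean of AT3G22540 is within the control range, so the size of its difference is inexact. In AtGATA2ox their means were also lower than in Col, at -0.54 and -0.49, close to the limit. AT1G22110 read 91.5, 64.9 and 9.9 in bri1-116, 68.6, 226 and 209 in AtGATA2ox, and 182, 223 and 225 in Col. Here the bri1-116 and AtGATA2ox arrays overlapped, since AtGATA2ox replicate 1 was as low as the bri1-116 arrays.

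AT2G36220 read 437, 663 and 531 in bri1-116, 1455, 5247 and 3628 in AtGATA2ox, and 2226, 2322 and 3144 in Col. AT1G67750 read 499, 619 and 414 in bri1-116, 2201, 1562 and 1813 in AtGATA2ox, and 1857, 2272 and 2878 in Col. The bri1-116 arrays of both lay below all others, with differences of -2.24 ± 0.23 and -2.19 ± 0.25. For AT2G36220 the AtGATA2ox arrays spanned more than the whole Col range, so its mean difference of 0.26 is imprecise.

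AT1G62660 read 1285, 1339 and 1493 in bri1-116, 8476, 7379 and 6682 in AtGATA2ox, and 6299.8, 6009.5 and 4812 in Col. It combined a large fall with high intensity, at -2.05 ± 0.14 in bri1-116. With the deposited scaling its AtGATA2ox arrays were all above the Col arrays (0.40), opposite to bri1-116. The rest of the 15 largest falls were AT5G19240 (-2.18), AT5G04310 (-2.11), AT3G55890 (-2.08), AT4G28085 (-1.97) and AT4G37240 (-1.95), beside PRX71.

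Among the 5 brightest genes of each direction, chosen after their values were seen, the changes were mostly smaller. AT2G47780 read 16472, 14222 and 12637 in bri1-116, 7823, 5446 and 6339 in AtGATA2ox, and 5725, 4582 and 7806 in Col. AT2G46600 read 12056, 11128 and 13724 in bri1-116, 8537, 7778 and 10386 in AtGATA2ox, and 5689.9, 6744 and 5456 in Col. Their differences were 1.28 ± 0.25 and 1.05 ± 0.13, and for AT2G46600 all AtGATA2ox arrays were also above Col, at 0.57. AT3G02560 read 9635, 7859 and 8331 in bri1-116, 4903, 3424 and 2936 in AtGATA2ox, and 4286, 3806 and 4206 in Col, a difference of 1.07 ± 0.10.

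On the lower side AT3G53990 read 3424, 3571 and 1677 in bri1-116, 4052, 5423 and 4339 in AtGATA2ox, and 6053, 6895 and 6073 in Col. AT1G63840 read 3087, 2783 and 1472 in bri1-116, 3624, 6842 and 5395 in AtGATA2ox, and 5937, 5008 and 4303 in Col. In both, bri1-116 replicate 3 was lower than the other arrays by a wide margin, and the differences were -1.21 ± 0.36 and -1.11 ± 0.36. AT3G11780 read 2031, 1829 and 2180.3 in bri1-116, 2871, 3581 and 5841 in AtGATA2ox, and 4123, 5157 and 4219 in Col, at -1.16 ± 0.13. AT1G22410 read 1452, 1726 and 2114 in bri1-116, 5208, 4265 and 3660.5 in AtGATA2ox, and 4017, 4113 and 4880.2 in Col, at -1.31 ± 0.18, and its AtGATA2ox mean was within 0.01 of Col (0.004).

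Being within the AtGATA2ox limits did not mean the same level as Col. Of the 139 higher genes, 27 had AtGATA2ox arrays that did not overlap the Col arrays, 20 of them above Col as in bri1-116. Of the 88 lower genes 15 did not overlap, 10 of them below Col. Over all 11933 probe sets 37.3% did not overlap in AtGATA2ox against Col, and nothing is read from the difference, since the limits cap these genes. The AtGATA2ox mean was within 0.3 of Col for 64 of the 139 and 50 of the 88. It was above Col for 81 and below for 58 of the higher genes, and above for 36 and below for 52 of the lower genes. The AtGATA2ox median of the lower genes (-0.14) was close to that of all locus-code probe sets (-0.13). With centring on the median the medians were 0.42 for the higher and 0.20 for the lower genes, against 0.21 over all. These sign counts therefore depend on the scaling, and nothing is read from them.

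The bri1-116 and AtGATA2ox arrays did not overlap for 134 of the 139 higher genes and 78 of the 88 lower genes, against 34.2% of all locus-code probe sets. This follows from the rule for most of them and is no separate result.

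The members were spread over the genome. On chromosomes 1 to 5 there were 30, 24, 30, 19 and 36 higher genes and 25, 10, 18, 10 and 25 lower genes, out of 3103, 1968, 2443, 1724 and 2695 probe sets. The median gene length was 2040 bases for higher genes and 1793 bases for lower genes, against 2090 bases over all locus-code probe sets. Of 4561 pairs of adjacent protein-coding genes that were both measured, 2 pairs consisted of members. AT5G19240 and AT5G19250 were both lower, at -2.18 and -1.32 on the log2 scale. AT4G37240 was lower (-1.95) and its neighbour AT4G37250 higher (1.04).

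AT5G19240 read 78.3, 86.9 and 100.3 in bri1-116, 297, 392 and 599 in AtGATA2ox, and 323, 640.4 and 313 in Col. AT5G19250 read 789.9, 850.4 and 1143 in bri1-116, 3794, 2862 and 2620 in AtGATA2ox, and 2384, 2152 and 2309.5 in Col. The bri1-116 arrays of both neighbours were below all others, and in AtGATA2ox AT5G19250 was above Col on every array (0.42). AT4G37240 read 493, 355 and 468 in bri1-116, 1007, 1029 and 2228 in AtGATA2ox, and 1769, 1716 and 1554 in Col. AT4G37250 read 1330.1, 1246 and 1209 in bri1-116, 594, 403 and 615 in AtGATA2ox, and 632, 663 and 552 in Col. This pair moved apart in bri1-116 and lay within the limits in AtGATA2ox (-0.34 and -0.22).

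The genes of the brassinosteroid pathway and of auxin response were taken from 7 lists of 85 genes, of which 11 had a named probe set. None of the 11 is a member of the 227, but this is no result. The rule took only genes known by a locus code, so a gene annotated with a symbol could not enter, whatever its values. The auxin response list (9 genes) supplies 1 of the 11, GH3.3, which is included in the counts below. No gene of the synthesis list (16), the inactivation list (4) or the signal relay list (10) has a named probe set, and the annotation does not list 8730 of the 22746 probe sets, which may include some of them. They were tested with limma, with Benjamini-Hochberg adjustment over 22746 probe sets. In bri1-116 against Col 2 of the 11 rose, 5 fell and 4 did not pass, with a median of -1.39, against -0.02 and 15.1% called over all probe sets (7.09% higher and 8% lower). In AtGATA2ox against Col 3 rose, 6 fell and 2 did not pass, with a median of -1.04, against -0.17 and 28.5% called (9.72% higher and 18.8% lower). The share of higher calls over all probe sets was 47% in bri1-116, and 59.9% with centring on the median or 11.5% with scaling to the hybridisation controls. In AtGATA2ox it was 34.1%, and 47%, 58.1% and 3.38% with quantile normalisation, centring on the median and the hybridisation controls. Both comparisons share the Col arrays.

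At the receptor, BRL1, a relative of BRI1 that also binds brassinosteroid, read 61.1, 18.2 and 36.1 in bri1-116, 97, 95.4 and 43.5 in AtGATA2ox, and 104, 118 and 90.2 in Col. It did not pass the test in bri1-116, at -1.56 ± 0.56 (limma, adjusted p = 0.082), and with scaling to the hybridisation controls it was at -2.04 with adjusted p = 0.021. Among the transcription factors, CES, a regulator of brassinosteroid synthesis genes, was dim in all genotypes and did not pass (-0.10 ± 0.75, limma adjusted p = 0.96).

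BRH1, a RING finger gene known to be repressed by brassinosteroid, read 6003, 6077 and 9302 in bri1-116, 6027, 4941 and 7836 in AtGATA2ox, and 2397, 2875 and 3053 in Col. It rose in both genotypes, by 1.34 ± 0.21 in bri1-116 (limma, adjusted p = 0.00059) and by 1.16 ± 0.21 in AtGATA2ox (adjusted p = 0.00096). With scaling to the hybridisation controls the AtGATA2ox rise was 0.11 and not called (adjusted p = 0.69).

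Among growth targets, EXO, which is known to be induced by brassinosteroid and to promote growth, read 20664, 18625 and 20372 in bri1-116, 18059, 16744 and 18712 in AtGATA2ox, and 10469, 10988 and 11299 in Col. It rose by 0.86 ± 0.16 in bri1-116 (limma, adjusted p = 0.0019) and by 0.71 ± 0.16 in AtGATA2ox (adjusted p = 0.0043). With scaling to the hybridisation controls EXO was still higher in bri1-116 but not called (0.39, adjusted p = 0.19), and its direction in AtGATA2ox turned (-0.34, adjusted p = 0.15). In bri1-116 the call was also lost with replicate 3 as its only array, where the rise was as large (0.90, adjusted p = 0.063), and in AtGATA2ox with quantile normalisation (0.25, adjusted p = 0.22).

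The list of growth targets holds 7 genes with a named probe set, of which 1 rose (EXO), 5 fell and 1 did not pass in bri1-116 against Col. XTH18, of the xyloglucan endotransglucosylase family, read 877, 830.3 and 719 in bri1-116, 1033, 1167 and 907 in AtGATA2ox, and 2486, 2192 and 1749 in Col, and fell by 1.39 ± 0.17 on the log2 scale in bri1-116 (limma, adjusted p = 7.5e-05). EXPA4, an expansin gene, and XTH19 fell in both genotypes, and in bri1-116 were at -1.48 ± 0.14 and -3.27 ± 0.20 (limma, adjusted p = 1.5e-05 and 5e-07). EXPA8, another expansin gene, fell against Col in bri1-116 (-4.27 ± 0.24, limma adjusted p = 3.3e-07) and in AtGATA2ox (-2.08 ± 0.24, adjusted p = 3.2e-05). It was lower in bri1-116 than in AtGATA2ox (-2.19 ± 0.24, limma adjusted p = 2.5e-05). XTH19 was instead higher in bri1-116 than in AtGATA2ox (0.95 ± 0.20, limma adjusted p = 0.0027). With replicate 3 as the only bri1-116 array this XTH19 difference was smaller, at 0.57.

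XTH20 fell by 1.85 ± 0.45 in bri1-116 (limma, adjusted p = 0.012), but lost its call without Col replicate 2 (-1.86, adjusted p = 0.051) or 3 (-1.73, adjusted p = 0.066), and with replicate 3 as the only bri1-116 array (-2.12, adjusted p = 0.1), with differences of similar size. XTH33 read 1065, 904 and 905 in bri1-116, 463, 427 and 508 in AtGATA2ox, and 1774, 1126 and 1061 in Col. It fell in AtGATA2ox (-1.46 ± 0.19, limma adjusted p = 9.5e-05) and did not pass in bri1-116 (-0.43 ± 0.19, adjusted p = 0.18; -0.90 and adjusted p = 0.014 with scaling to the hybridisation controls). The genotypes differed by 1.04 ± 0.19 (adjusted p = 0.0014), but with replicate 3 as the only bri1-116 array by 0.96 with adjusted p = 0.078. Between bri1-116 and AtGATA2ox, 2 of the 11 genes were higher and 2 lower in bri1-116, against 26.8% called over all probe sets (17.2% higher and 9.55% lower).

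GH3.3, an auxin-conjugating enzyme gene, read 924, 1394 and 1338 in bri1-116, 4242, 4494 and 7056 in AtGATA2ox, and 874, 1388 and 1638 in Col. It rose in AtGATA2ox by 2.03 ± 0.25 (limma, adjusted p = 5.6e-05) and in bri1-116 was at -0.07 ± 0.25 (adjusted p = 0.92). The difference between bri1-116 and AtGATA2ox was -2.09 ± 0.25 (adjusted p = 5e-05).

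**Figure D5:**
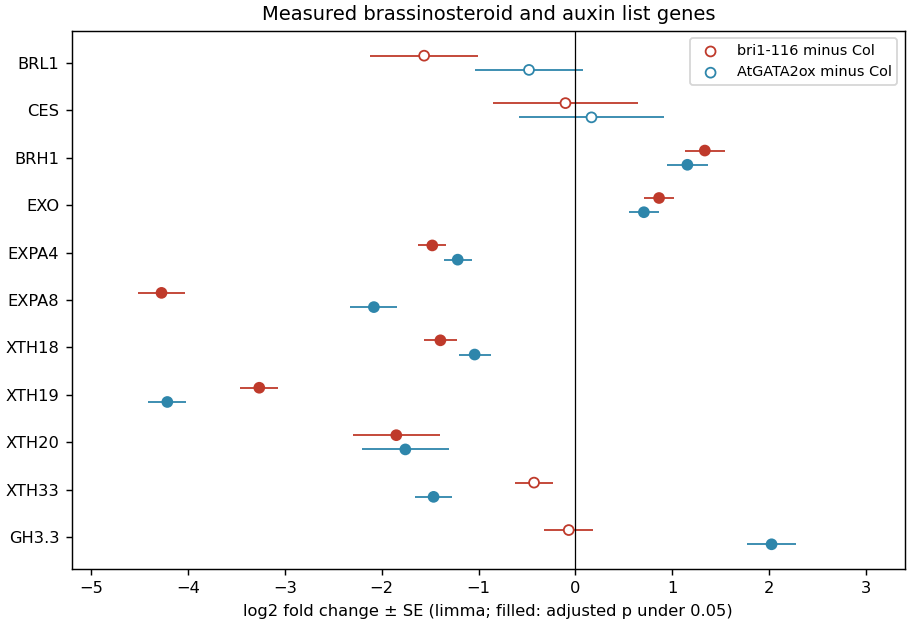
Log2 difference from Col (x axis, ± SE from limma) of the 11 measured brassinosteroid and auxin list genes (y axis) in bri1-116 (upper point of each pair) and AtGATA2ox (lower point), with filled points where the adjusted p was under 0.05. BRH1 and EXO lie to the right of 0 in both, and GH3.3 lies at 2.03 in AtGATA2ox and -0.07 in bri1-116.

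Few markers of particular cells had a named probe set, and their part in the differences of the 227 genes was not tested. Root hair markers (2 of 5 measured) summed to 87.1 to 101 in bri1-116, 36.8 to 139 in AtGATA2ox and 94 to 133 in Col. Stomatal lineage markers (3 of 6) summed to 93.4 to 173, 72.6 to 134 and 32.7 to 111 in bri1-116, AtGATA2ox and Col, and CLV3 of the shoot meristem stayed at 38.9 or below on every array. None of these was called in bri1-116, and in AtGATA2ox the root hair gene EXPA18 fell (-2.59 ± 0.75, limma adjusted p = 0.02). Its AtGATA2ox arrays (29.6, 3.7 and 15.3) lay within the range of the Bacillus controls there (up to 61.8), so this size is inexact. The other measured root hair gene, EXPA7, was at 0.40 ± 0.79 in AtGATA2ox and was not called (limma, adjusted p = 0.76). AUR1, a cell division kinase gene and the 1 of 5 division markers measured, read 172, 189 and 159.8 in bri1-116, 268, 153 and 249.9 in AtGATA2ox, and 545, 441 and 358 in Col, and fell in bri1-116 (-1.35 ± 0.27, limma adjusted p = 0.0033) and in AtGATA2ox (-1.02 ± 0.27, adjusted p = 0.011). The AUR1 call in AtGATA2ox was lost with quantile normalisation (-0.60, limma adjusted p = 0.12) and centring on the median (-0.68, adjusted p = 0.066). PORB, a protochlorophyllide reductase gene and the 1 of 6 light and dark seedling markers measured, read 14201, 14366 and 16483 in bri1-116, 11553, 10094 and 8014 in AtGATA2ox, and 7723, 5493 and 6679 in Col, and rose in bri1-116 (1.19 ± 0.18, limma adjusted p = 0.00057) and in AtGATA2ox (0.57 ± 0.18, adjusted p = 0.033). The PORB rise in AtGATA2ox was not called with quantile normalisation (0.21, limma adjusted p = 0.48) and turned to -0.48 (adjusted p = 0.10) when scaled to the hybridisation controls. PORB met the limits of size, array overlap, AtGATA2ox difference and level, and is no member only because it is not annotated by a locus code. None of the 9 seed storage markers has a named probe set in the annotation used here, which leaves 8730 probe sets unlisted.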

How the data were processed

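RNA of 9 samples, 3 each of bri1-116, AtGATA2ox and Col, was measured on single-colour Affymetrix arrays, and groups were taken from the labels. The deposited table gives a linear intensity for each probe set on each array. MAS5 and GCRMA were used per the submitters' processing notes, which name no version and leave unstated which of them made the values. Every deposited array was found to have a mean intensity of 500 without its lowest and highest 2%. The genome build is not given in the sources used here.

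Intensities were used as log2(value + 1) with no further normalisation, so a difference understates the change of dim genes. Of 22810 probe sets, 64 array controls were left out. The platform annotation pairs 13513 of the remaining 22746 with 1 gene, 503 with several, and does not list 8730. One limma fit (version 3.58.1, R 4.3.3, eBayes, trend by intensity) covered the 9 arrays together and left 6 residual degrees of freedom. It was tested on simulated data. Calls needed a Benjamini-Hochberg adjusted p under 0.05 and are given for genes that are no member. The SE of a member's difference was computed from the SDs of the 3 log2 values of each genotype. Precision is limited by the number of arrays. Python 3.11.15 and pandas 2.3.3 did the rest.

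The members and lists were chosen with earlier results of these data known. Named members are the 15 largest differences each way, adjacent members, those with a name and those nearest the limits. A planned grouping by product class was not made, as the annotation used here gives no products, and the 5 brightest members each way were added after their values were seen. Alternatives were other scalings, a pseudocount of 16, eBayes without a trend, no dim probe sets, other limits, a replicate block and leaving out each array.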

Additional observations from a re-analysis of the deposited data

Results flagged for a closer look

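These differences between bri1-116 and AtGATA2ox (bri1-116 minus AtGATA2ox, limma, log2) passed the test of the difference itself among the listed genes that are no member. They were -2.19 for EXPA8, 0.95 for XTH19, 1.04 for XTH33, -2.09 for GH3.3 and 0.62 for PORB. With centring on the median the PORB difference was 0.41 and did not pass (limma, adjusted p = 0.18). PORB averaged 15017 in bri1-116, against 9887 in AtGATA2ox. Of the array controls, which enter no comparison, the 25S ribosomal RNA probe set read 8762.9 on bri1-116 replicate 1, against at most 194.2 in Col. The control probe set U12639 read 2473.3 or more on each AtGATA2ox array, against at most 57.9 in bri1-116 and 54.9 in Col.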

How the results depend on the processing

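The higher members numbered 48 when scaled to the hybridisation controls, 64 with an AtGATA2ox limit of 0.3 and 211 with a limit of 1, against 139. The count of lower members was 50 and 149 with those limits, against 88. Leaving out each array gave 126 to 157 higher and 82 to 104 lower members. The other member counts stayed within 1.5 times the reported ones. All 227 kept their sign under every scaling, pseudocount and left-out array. The criteria of size and no overlap made this nearly certain, so it is no separate result. The size of the difference was checked for 41 of the members named here, not for all of them. Of these 41, the difference moved by more than 1 SD for 33 with scaling to the hybridisation controls. It did so for 9 with replicate 3 as the only bri1-116 array (a setting chosen after seeing the data). With quantile normalisation and centring on the median it did so for 3 each, and with a pseudocount of 16 for 2. Calls for bri1-116 against Col numbered 3431, and 2104 with eBayes without a trend, 1416 with that single array, and 2152 (without Col replicate 2) to 4115 when an array was left out. Calls for AtGATA2ox against Col numbered 6486, and 12467 with scaling to the hybridisation controls (4794 to 6641 without an array). Calls for bri1-116 against AtGATA2ox numbered 6086, and 2278 with the single array (4582 to 6316 without an array), with 64.3% higher, 50% with centring on the median and 89.2% with scaling to the hybridisation controls. EXO was at -0.34 with that scaling in AtGATA2ox against Col, and at 0.71 as reported. The causes of these changes were not tested. Same-numbered arrays did not deviate together (correlations of -0.018 to 0.020, against -0.037 to 0.031 for arrays of other numbers). The labels do not state whether numbers pair arrays, and this check over all probe sets cannot settle it. A replicate block gave 3439, 6460 and 6036 calls in the 3 comparisons. Levels near the Bacillus controls limit what dim members can show.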
